A study of Mus musculus with 36 samples.

Results

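Clustered protocadherins are adhesion proteins of the cadherin superfamily, and 58 of the 36172 gene rows of a hippocampal RNA-seq table carried their names. They were chosen by symbol alone, from the Pcdha, Pcdhb, Pcdhga, Pcdhgb and Pcdhgc prefixes. The alpha cluster gave 14 rows, the beta cluster 22 and the gamma cluster 22, the last made of 12 gamma A, 7 gamma B and 3 gamma C rows. Of the 58 rows, 57 passed the filter on low counts. Pcdhb1, with 0 to 8 estimated counts per library, did not pass and was not tested.

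The proteins sit on the surface of neurons and bind like to like between cells, which lets a neuron tell its own branches from those of others. Within the alpha and gamma clusters each gene has its own first exon and promoter, and the transcript is spliced to constant exons shared by the whole cluster, which encode the inner tail of the protein. Beta genes have no constant exon. Of most of these promoters each neuron uses its own subset, chosen with the help of the insulator protein CTCF, cohesin and DNA methylation. The C-type genes (Pcdhac1, Pcdhac2, Pcdhgc3, Pcdhgc4 and Pcdhgc5) are used more evenly across neurons.

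All animals were Cx3cr1-NuTRAP mice, in which cre driven by the Cx3cr1 promoter, active in microglia and related macrophages, marks ribosomes with a green fluorescent tag once tamoxifen is given. In translating ribosome affinity purification (TRAP), an antibody to the tag then recovers RNA held by the marked ribosomes, and input RNA was set aside from the same homogenate. The 36 libraries were 10 inputs of young early-induced mice (6 months, 5 females and 5 males), 12 inputs of old early-induced mice (22 months, 7 females and 5 males), 7 inputs of old late-induced mice (22 months, 5 females and 2 males) and the 7 TRAP libraries of those same late-induced mice. The design set induction at early against late ages, and old against young animals. Every group carried the reporter and was induced, and the TRAP fraction holds RNA of whichever cells had recombined, plus what the beads carried over.

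Library totals ran from 12.9 to 20.4 M estimated counts, and levels are given as CPM, counts scaled to the library's size, after correction by the trimmed mean of M-values (TMM). Markers fixed for each cell type were checked first. The 10 neuronal markers, among them Snap25 and Rbfox3, were read in every group and summed to between 7248 and 8664 CPM in the inputs. Choroid plexus markers ranged from 44.8 to 4050 CPM between inputs. In TRAP all 10 microglial markers rose, from a sum of 597 to 885 CPM in the paired inputs to 10891 to 17472 CPM, and the neuronal sum was 5948 to 7570 CPM against 7416 to 8218 CPM. Sample numbers in the titles run in separate blocks for the 3 input groups, so whatever went with that order cannot be told apart from age or induction.

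The 3 clusters lie in a row on the plus strand of mouse chromosome 18 in the deposited coordinates (mm10). The alpha rows span 36930285 to 37187660, the beta rows 37264998 to 37521419 and the gamma rows 37661945 to 37841872. Each alpha row overlaps the 13 other alpha rows and each gamma row the 21 other gamma rows, while no beta row overlaps another member. In the GENCODE annotation of the same build, 2860 bases of constant exon are shared in the alpha cluster and 2116 bases in the gamma cluster. A median of 46.5% of an alpha gene's exon bases (range 45.1% to 63.6%) and 55.2% of a gamma gene's (54.5% to 60.5%) belong to no other gene of the cluster.

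In every alpha and every gamma row, 100% of the nonzero values were fractions rather than whole counts, against a median of 51.4% in beta rows and 77.4% in the whole table. Several beta rows were also mostly fractions, such as Pcdhb3 (77.8%), Pcdhb8 (80.6%) and Pcdhb6 (86.1%). How the counting tool divided reads is not given in the sources used here, so single rows of overlapping or similar genes are uncertain. The 3 predicted genes that overlap alpha rows, Gm18150, Gm19035 and Gm10544, had 0 counts in every library. In 3 old inputs the counts were spread over the alpha rows unlike in any other input, as described with Pcdhac2 below.

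Levels between genes were compared per kilobase of exon, for the 56 members with a GENCODE exon length. Pcdhgc5, a gamma C protein reported to bind GABA-A receptors, stood highest in young inputs at 37.1 ± 2.74 CPM per kilobase (SD, n = 10). Pcdhgc3, known to restrain Wnt signalling through Axin1, followed at 35.2 ± 2.25 CPM per kilobase, within the spread of Pcdhgc5. The next genes in order were Pcdhga11 at 10.9 ± 0.95, Pcdhac2 at 6.51 ± 0.467 and Pcdhga3 at 6.42 ± 0.637 CPM per kilobase, and the last pair did not differ beyond their spread. Pcdhac2 is needed for the even spacing of serotonergic axons.

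The remaining subgroups were lower per kilobase. Medians in young inputs were 4.35 CPM per kilobase over gamma A genes, 2.98 over gamma B genes, 1.94 over Pcdha1 to Pcdha12 and 1.03 over beta genes. Alpha 1 to 12 genes lay close together, from 1.27 to 2.73, whereas beta genes spread from 0.0429 (Pcdhb1) to 4.12 CPM per kilobase (Pcdhb9). Alpha genes share 2860 bases of constant exon and beta genes share none. Whether reads divided between the alpha rows drew their values together was not tested. Several deposited beta rows, such as Pcdhb14, Pcdhb17 and Pcdhb22, ended well before the GENCODE gene, while alpha and gamma ends nearly matched. The Pcdhb14 row ran from 37447657 to 37451094, but its divisor was 8695 exon bases. Beta values per kilobase, and their order, may therefore read too low beside the other subgroups, by an amount that was not tested. As plain sums, the gamma rows held 743 ± 27.9 CPM of young input RNA, the alpha rows 177 ± 8.93 CPM and the beta rows 126 ± 5.62 CPM (SD, n = 10).

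**Figure D1:**
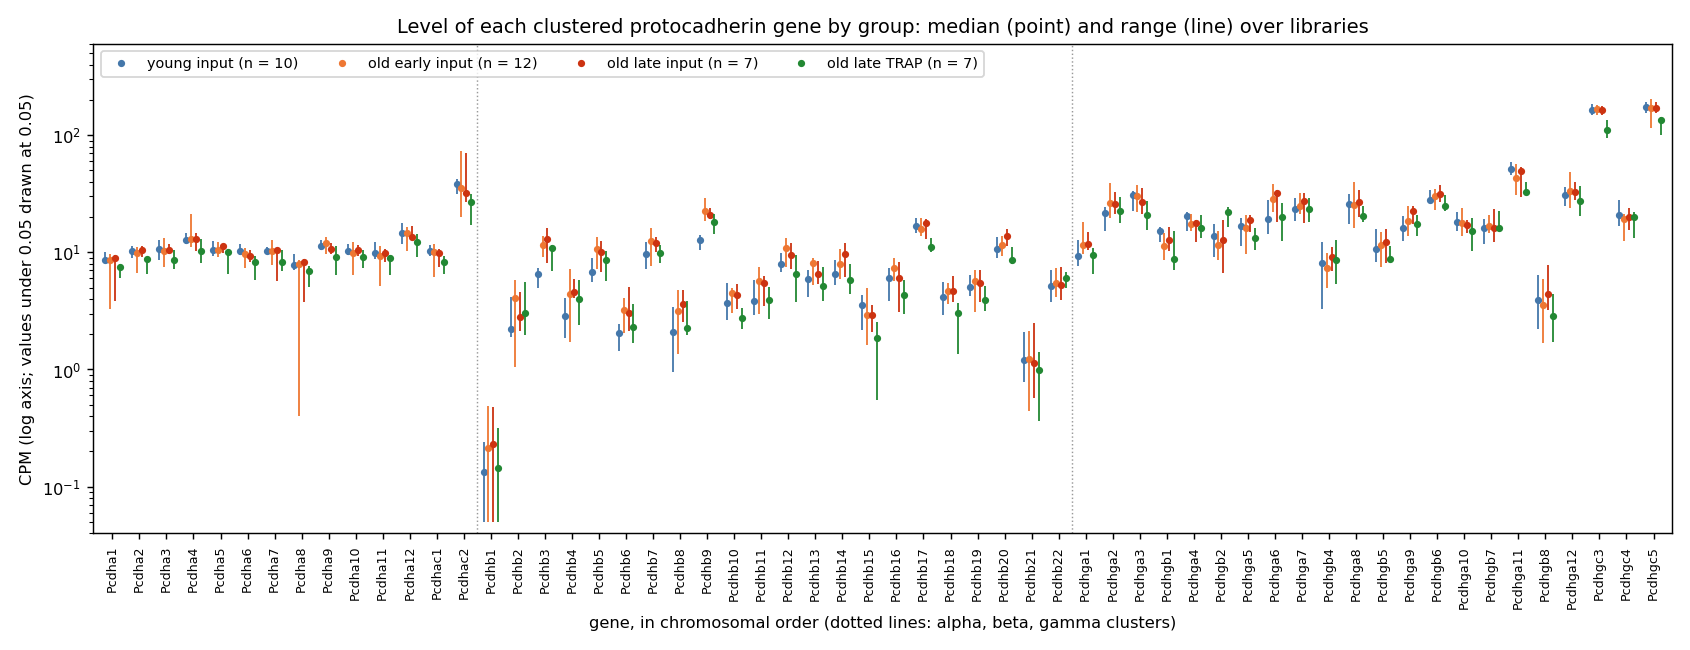
CPM on a log axis for the 58 clustered protocadherin genes in chromosomal order, with the median (point) and range (line) over the libraries of each of the 4 groups. Pcdhgc3 and Pcdhgc5 stand above all others in every group, and the medians of Pcdhb2 to Pcdhb9 are higher in both old input groups than in young inputs.

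With age, the change in hippocampal input lay mainly in the beta cluster. The beta total was 116 to 134.3 CPM in young inputs (median 125), 134.4 to 188 CPM in old early-induced inputs (median 162) and 138 to 185 CPM in old late-induced inputs (median 169). Every old input thus stood above every young input, by a narrow margin at the lowest old library. The mean log2 difference was 0.35 for early-induced and 0.37 for late-induced animals, or 1.28-fold and 1.29-fold. The median over beta rows differed less, by 0.17 and 0.14 on the log2 scale.

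The alpha and gamma totals did not separate by age. The alpha total was 167 to 198 CPM in young, 144 to 190 CPM in old early-induced and 155 to 194 CPM in old late-induced inputs. The gamma total was 688 to 793, 643 to 819 and 709 to 798 CPM in the same order. In both clusters the 3 ranges overlapped, and the mean log2 differences from young lay between -0.05 and 0.03.

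Gene by gene, edgeR's quasi-likelihood test over all 29 inputs called 17 of 57 members in old early-induced against young animals at an adjusted p under 0.05. Of all 14948 genes tested, 25.6% were called, and the members' median log2 fold change of 0.03 was near the 0.01 of all genes. Calls were 15 higher and 2 lower, against 13% and 12.6% of all genes in those directions. The beta cluster held 12 of the higher calls among its 21 tested rows, the gamma cluster held the other 3 and both lower calls among 22, and none of the 14 alpha rows was called. In the alpha cluster no row reached an unadjusted p of 0.05 either, and DESeq2 and limma voom gave 17 member calls each in all.

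Against the same young libraries, old late-induced animals had 13 of 57 members called, all higher, where 34.5% of all genes were called and 17% were called higher. Beta rows made up 9 of these calls and gamma rows 4. No alpha row was called or reached an unadjusted p of 0.05. The median log2 fold change was 0.31 over beta, 0.09 over gamma and -0.05 over alpha rows, beside 0.33, -0.01 and -0.07 in early-induced animals. Because both comparisons use the same 10 young inputs, the values of the members are set side by side below and not as independent support for each other.

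**Figure D2:**
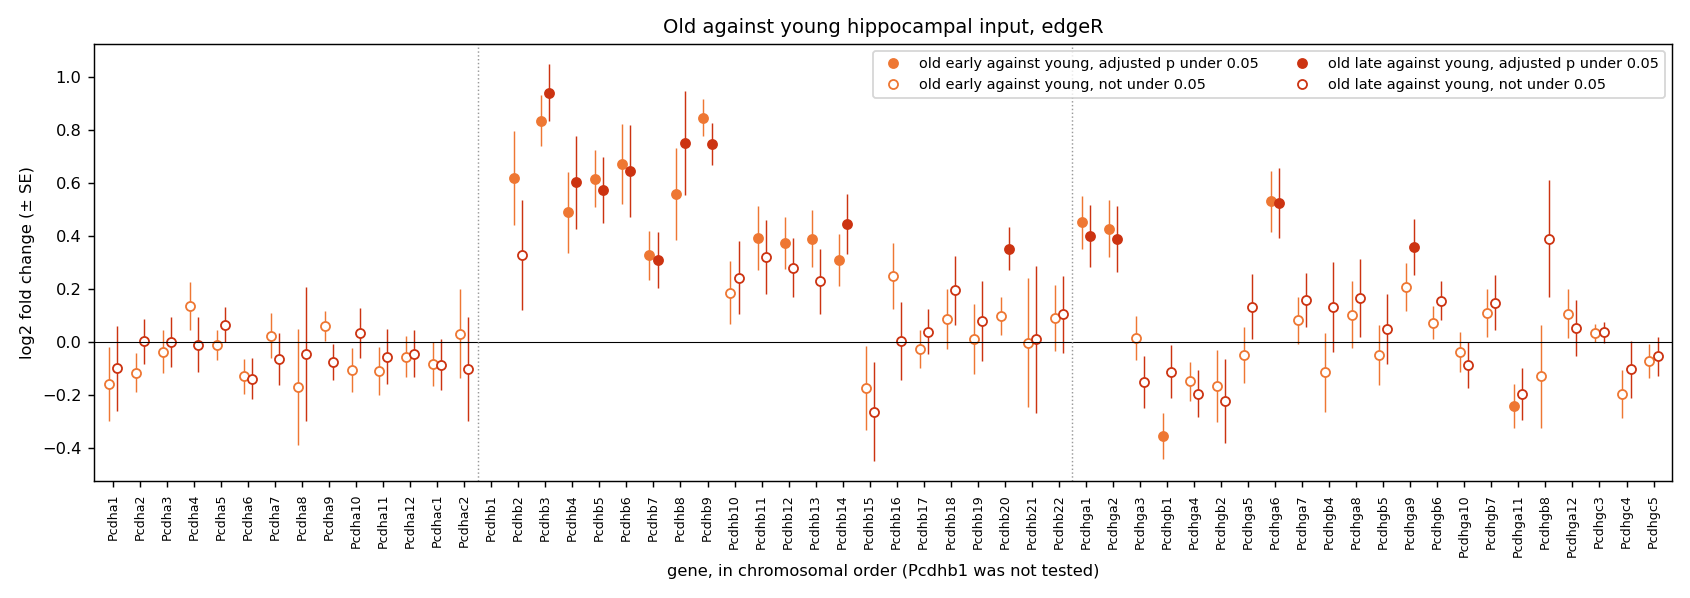
Log2 fold change (± SE) of each tested member in old early-induced and old late-induced inputs against young inputs, from edgeR, in chromosomal order. Filled points have an adjusted p under 0.05, and the filled points above 0 gather at the beta genes from Pcdhb2 to Pcdhb14.

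Within the beta cluster the higher calls fell in the part nearest the alpha cluster. From Pcdhb2 to Pcdhb14, a boundary drawn after the values were seen, 12 of 13 genes were called higher in early-induced animals. In late-induced animals 8 of 13 were. Of all genes 13% and 17% were called higher, and all 13 values lay above 0 in both comparisons. Pcdhb10, at 0.19 ± 0.12 and 0.24 ± 0.14 (log2 fold change ± SE), was called in neither. Among females alone the early-induced calls of Pcdhb4, Pcdhb11, Pcdhb12 and Pcdhb13 and the late-induced call of Pcdhb7 were lost. Their log2 fold changes there were 0.54, 0.38, 0.42, 0.43 and 0.30 in that order, at edgeR adjusted p values of 0.0566 to 0.0887. With females only, 1198 of 14862 genes were called in early-induced animals, against 3826 of 14948 with both sexes. In late-induced animals these were 2787 and 5151. From Pcdhb15 to Pcdhb22 none of 8 was called in early-induced animals, none at an unadjusted p of 0.05, and only Pcdhb20 was called in late-induced animals. Genes Pcdhb2 to Pcdhb9, a stretch also chosen after the values were seen, made up 33.5% to 36.9% of the beta total in young inputs. Their share was 41.6% to 45.9% in old early-induced and 41.5% to 45.3% in old late-induced inputs. The share in every old input exceeded that in every young one, but a stretch picked from these values gives no separate support.

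Pcdhb9, like each beta gene the source of its own adhesive outer domain, read 10.5 to 14.1 CPM in young inputs (median 12.8), 18.4 to 28.9 CPM in old early-induced (median 22.7) and 19.3 to 24.0 CPM in old late-induced inputs (median 20.8). Neither old group overlapped the young group. The log2 fold change was 0.85 ± 0.07 (SE; edgeR adjusted p = 8.22e-10) in early-induced and 0.75 ± 0.08 (adjusted p = 3.15e-08) in late-induced animals, or 1.80-fold and 1.68-fold.

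Pcdhb3 was 4.93 to 7.35 CPM in young inputs (median 6.48), 9.14 to 13.9 CPM in old early-induced (median 11.5) and 8.13 to 16.0 CPM in old late-induced inputs (median 12.9). Again no old library fell into the young range. It rose by 0.84 ± 0.10 (edgeR adjusted p = 1.95e-07) and 0.94 ± 0.11 (adjusted p = 1.56e-07) on the log2 scale, 1.78-fold and 1.92-fold. Pcdhb3 and Pcdhb9 were the 2 members whose young and old early-induced libraries did not overlap, where 0.85% of all genes were higher without overlap. In late-induced animals Pcdhb4 joined them, with 4.06 to 5.97 CPM against 1.86 to 4.04 CPM in young, and 2.39% of all genes were higher without overlap.

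Pcdhb5, Pcdhb6, Pcdhb7 and Pcdhb8 also rose in both comparisons, though single libraries overlapped. Pcdhb5 went from 5.57 to 8.90 CPM in young inputs (median 6.73) to 7.14 to 13.6 CPM (median 10.6) in old early-induced and 6.76 to 12.4 CPM (median 10.1) in old late-induced inputs. Its log2 fold changes were 0.62 ± 0.11 (edgeR adjusted p = 9.57e-05) and 0.57 ± 0.12 (adjusted p = 0.000621). Those of Pcdhb6 were 0.67 ± 0.15 and 0.65 ± 0.17 and those of Pcdhb8 were 0.56 ± 0.17 and 0.75 ± 0.20. Pcdhb7 rose least of this stretch, by 0.33 ± 0.09 and 0.31 ± 0.11, and its late-induced call was lost when either of 2 old late-induced inputs or 1 young input was left out.

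Pcdhb2 and Pcdhb4 were low and variable. Pcdhb2 ranged from 1.89 to 4.15 CPM in young inputs (median 2.20) with 1.04 to 5.81 CPM after early induction in old mice (median 4.08), so the old group spread on both sides of the young group. It rose by 0.62 ± 0.18 on the log2 scale in early-induced animals (edgeR adjusted p = 0.0108) and was at 0.33 ± 0.21 in late-induced animals, where it was not called. Pcdhb4 rose by 0.49 ± 0.15 and 0.60 ± 0.18. In early-induced animals that call ended without the 3 inputs with high Pcdhac2 described below (0.40, adjusted p = 0.0657).

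**Figure D3:**
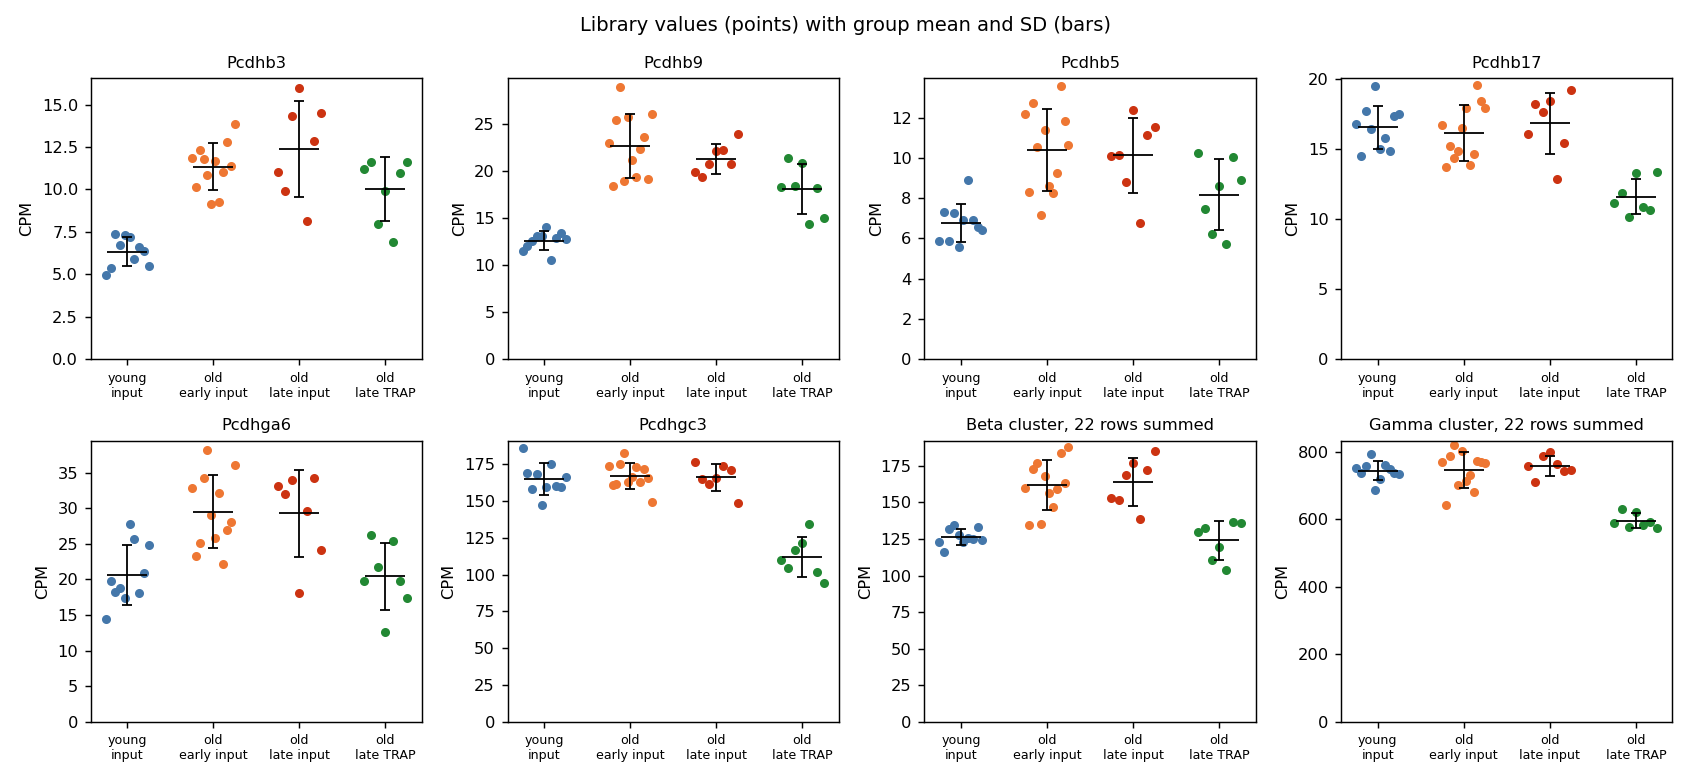
CPM of single libraries (points) with group mean and SD (bars) for 6 genes and for the beta and gamma cluster totals, axes from 0. Pcdhb3 and Pcdhb9 are higher in every old input than in every young input, the input ranges of Pcdhb17 and Pcdhgc3 overlap, and all TRAP values of Pcdhgc3 lie below all inputs.

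Farther along the cluster, Pcdhb17 shows the other pattern. It read 14.5 to 19.5 CPM in young, 13.7 to 19.6 CPM in old early-induced and 12.9 to 19.2 CPM in old late-induced inputs. The 3 ranges all but coincide, and the log2 fold changes were -0.03 ± 0.07 and 0.04 ± 0.08, with edgeR adjusted p values of 0.827 and 0.758. Pcdhb20 was at 8.98 to 13.5 CPM in young and 11.2 to 15.7 CPM in old late-induced inputs and rose by 0.35 ± 0.08 there (adjusted p = 0.00127), while in early-induced animals it was at 0.10 ± 0.07. The direct comparison of the 2 old groups gave Pcdhb20 a log2 difference of 0.25 ± 0.08 with an adjusted p of 0.203.

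In the gamma cluster the age calls were few and went both ways, and all the higher ones were gamma A genes. Pcdhga6 read 14.5 to 27.8 CPM in young inputs (median 19.3), 22.2 to 38.2 CPM in old early-induced (median 28.6) and 18.04 to 34.2 CPM in old late-induced inputs (median 31.9). The groups overlapped, and it rose by 0.53 ± 0.12 (edgeR adjusted p = 0.00106) and 0.52 ± 0.13 (adjusted p = 0.00267) on the log2 scale. Pcdhga1 rose by 0.45 ± 0.10 and 0.40 ± 0.12 and Pcdhga2 by 0.43 ± 0.11 and 0.39 ± 0.12. Among females alone Pcdhga6, at 0.42 and 0.37, was not called in either comparison (edgeR adjusted p = 0.0998 and 0.133). Pcdhga2, at 0.46 in late-induced females, was not called there (0.0565). The latter call also ended without old late-induced input 2 (0.0635). Pcdhga9 was at 0.21 ± 0.09 in early-induced animals, where it was not called, and rose by 0.36 ± 0.11 in late-induced animals.

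The 2 lower calls were seen in early-induced animals. Pcdhgb1 was 12.1 to 16.4 CPM in young (median 15.2) and 8.68 to 14.7 CPM in old early-induced inputs (median 11.2), and fell by 0.36 ± 0.09 on the log2 scale (edgeR adjusted p = 0.00303). In late-induced animals it ranged from 10.3 to 16.5 CPM and stood at -0.11 ± 0.10, which was not called. Among females alone the early-induced Pcdhgb1 value was -0.21 and the call was lost (adjusted p = 0.298). Pcdhga11, the third highest gene per kilobase, fell by 0.24 ± 0.08 (adjusted p = 0.0319) and was at -0.20 ± 0.10 in late-induced animals. The Pcdhga11 call was lost when any of 4 libraries was left out, with an adjusted p of up to 0.069.

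The C-type genes did not pass the test with age. Pcdhgc3 was 148 to 186 CPM in young, 149 to 183 CPM in old early-induced and 149 to 177 CPM in old late-induced inputs, and its log2 fold changes of 0.03 ± 0.03 and 0.04 ± 0.04 had the smallest SE of all members. Pcdhgc5 was at -0.07 ± 0.06 and -0.05 ± 0.07 and Pcdhac1 at -0.08 ± 0.08 and -0.09 ± 0.10. Pcdhgc4, the gamma protein on which the survival of many interneurons depends, was at -0.20 ± 0.09 (edgeR adjusted p = 0.113) and -0.10 ± 0.11. As a share of all clustered protocadherin RNA, C-type rows held 39.3% ± 1.24 (SD) in the 10 young inputs, 37.2% ± 0.995 in the 12 inputs of old mice induced early and 36.8% ± 0.796 in the 7 of old mice induced late.

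Pcdhac2 set 3 old libraries apart. In 26 of the 29 inputs it read 19.96 to 42.1 CPM, and in old late-induced input 7, old early-induced input 6 and old early-induced input 12 it read 71.0, 69.7 and 72.6 CPM. Pcdha8 read 3.73, 0.402 and 3.80 CPM in the same libraries, against 6.96 to 9.77 CPM in the other 26. Pcdha1, Pcdha6 and Pcdha11 also lay below every other input in all 3, and 9 of the 14 alpha rows did so in at least 1 of them.

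The sum over the alpha cluster was nonetheless 194, 185 and 190 CPM in the 3 libraries, inside the 144 to 198 CPM of the others. TRAP RNA of the animal of old late-induced input 7 had 29.7 CPM of Pcdhac2, within the TRAP range of 17.3 to 31.4 CPM. Whether the division of reads between overlapping alpha rows moved with these values was not tested. With the 3 libraries the Pcdhac2 log2 fold changes with age were 0.03 ± 0.17 and -0.10 ± 0.20. Without them, a choice made after the values were seen, it fell by 0.24 (edgeR adjusted p = 0.0214) in early-induced and by 0.35 (adjusted p = 0.00377) in late-induced animals. The number of members called with age was then 17 (14 higher) and 14 (13 higher).

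**Figure D4:**
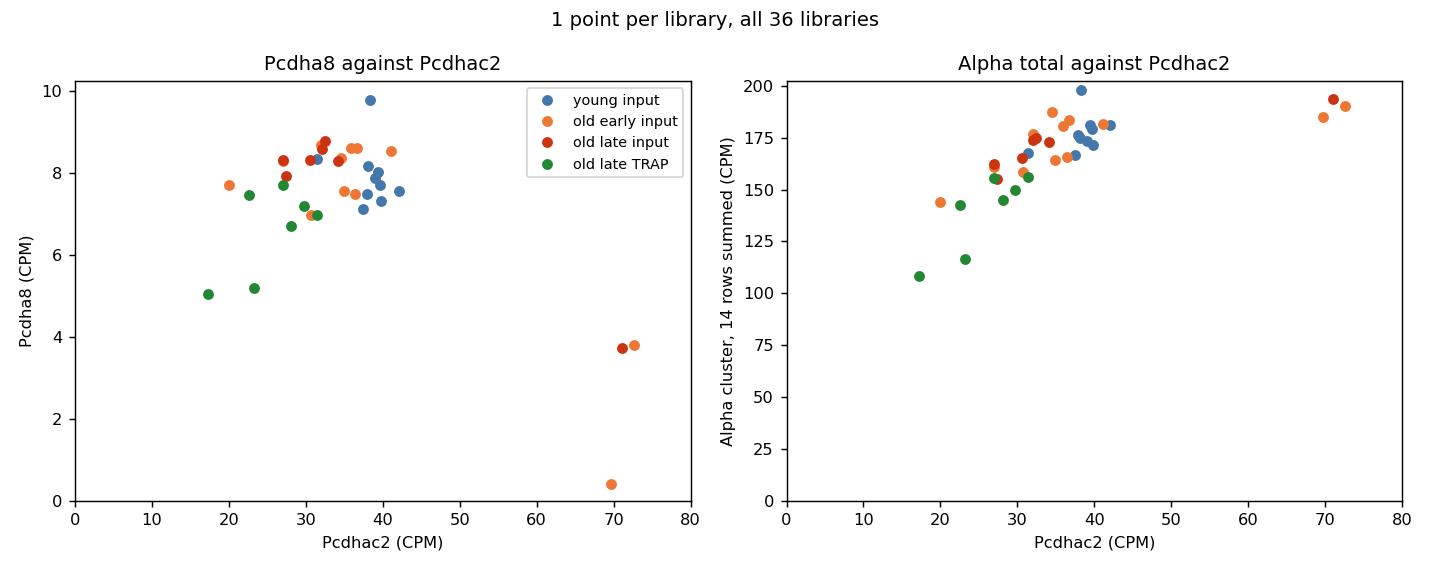
CPM of Pcdha8 (left) and of the 14 alpha rows summed (right) against CPM of Pcdhac2, with 1 point for each of the 36 libraries and colour for the group. The 3 points near 70 CPM of Pcdhac2 have the lowest Pcdha8 values and an alpha total like that of other inputs.

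Cell type markers also moved with age. All 10 microglial markers rose in both comparisons, with median log2 fold changes of 0.47 and 0.66, as did 5 and 6 of 6 oligodendrocyte markers. Of the 6 genes listed as oligodendrocyte precursor markers (Pdgfra, Cspg4, Vcan, Sox10, Olig1 and Olig2), 4 rose and 1 fell in each. Of 3 blood markers, 1 rose in early-induced and 3 in late-induced animals, with medians of 0.92 and 1.43. Of 10 neuronal markers, 1 rose in early-induced and 2 fell in late-induced animals, with medians of -0.03 and -0.05, and 2 of 8 astrocyte markers rose in each. In RNA of whole tissue, fewer cells of a type and less RNA per cell cannot be told apart, and the part of these shifts in the protocadherin values was not tested.

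Induction age and sex gave no member calls in edgeR. Between old late-induced and old early-induced inputs 0 of 57 members were called, where 0.0334% of all genes were called. An unadjusted edgeR p under 0.05 was reached by 4 of 57 members (Pcdha9, Pcdhb20, Pcdhgb1 and Pcdhgb8), beside 1736 of all 14948 genes. DESeq2 and limma voom called 0 members. Pcdhgb8 had the largest difference, 5.01 ± 1.94 CPM (SD) in 7 late-induced against 3.48 ± 1.11 CPM in 12 early-induced inputs, and its log2 fold change was 0.52 ± 0.21 with an edgeR adjusted p of 0.33.

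Between male and female inputs 0 of 57 members were called by edgeR, DESeq2 and limma voom, where edgeR called 0.174% of all genes. The log2 fold change of males against females was below 0 in 43 of 57 members, with a median of -0.07. At an unadjusted edgeR p under 0.05 there were 7 of 57 members, beside 1632 of all 14948 genes, a similar share. Of these 7, Pcdhb2 (-0.46 ± 0.16), Pcdhb8 (-0.38 ± 0.15) and Pcdhb11 (-0.32 ± 0.11) were lowest and Pcdhga1 was higher in males (0.25 ± 0.09).

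In the TRAP fraction nearly all members read lower than in the paired input. The gamma total was 575 to 630 CPM in TRAP and 709 to 798 CPM in input, with no overlap. The beta total was 103 to 137 CPM against 138 to 185 CPM, again with no overlap, and the alpha total was 108 to 156 CPM against 155 to 194 CPM, which overlapped. The log2 ratio of TRAP to input per animal was -0.35 ± 0.09 for gamma, -0.40 ± 0.15 for beta and -0.31 ± 0.20 for alpha (SD, n = 7), and it was below 0 in 7 of 7 animals for each cluster. For gamma this holds for the sum: the median over gamma rows gave -0.11 ± 0.21 and was lower in 4 of 7 animals.

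By edgeR's test on the 14 libraries, 35 of 57 members were called at an adjusted p under 0.05, 34 lower and 1 higher. Of all 14596 genes tested 59.2% were called, 30.4% higher and 28.8% lower. The median log2 fold change was -0.31 over members and -0.02 over all genes. With the animal as a block, 41 members were called, 40 of them lower. Pcdha9, Pcdhb3, Pcdhb5, Pcdhb16, Pcdhga2 and Pcdhga12 were the 6 added and no call was lost.

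Calls near the threshold were many. Of the 35, 18 held whichever animal was left out. The number called in these fits, run without the animal as a block, ranged from 24 to 33. By cluster, 7 of 14 alpha, 13 of 21 beta and 14 of 22 gamma rows were lower, with median log2 fold changes of -0.25, -0.45 and -0.32. All 14 alpha values lay between -0.50 and -0.19. Upper quartile scaling and scaling by library size alone moved the median of all genes to -0.16 and -0.13, so small values in TRAP are relative to the scaling used.

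**Figure D5:**
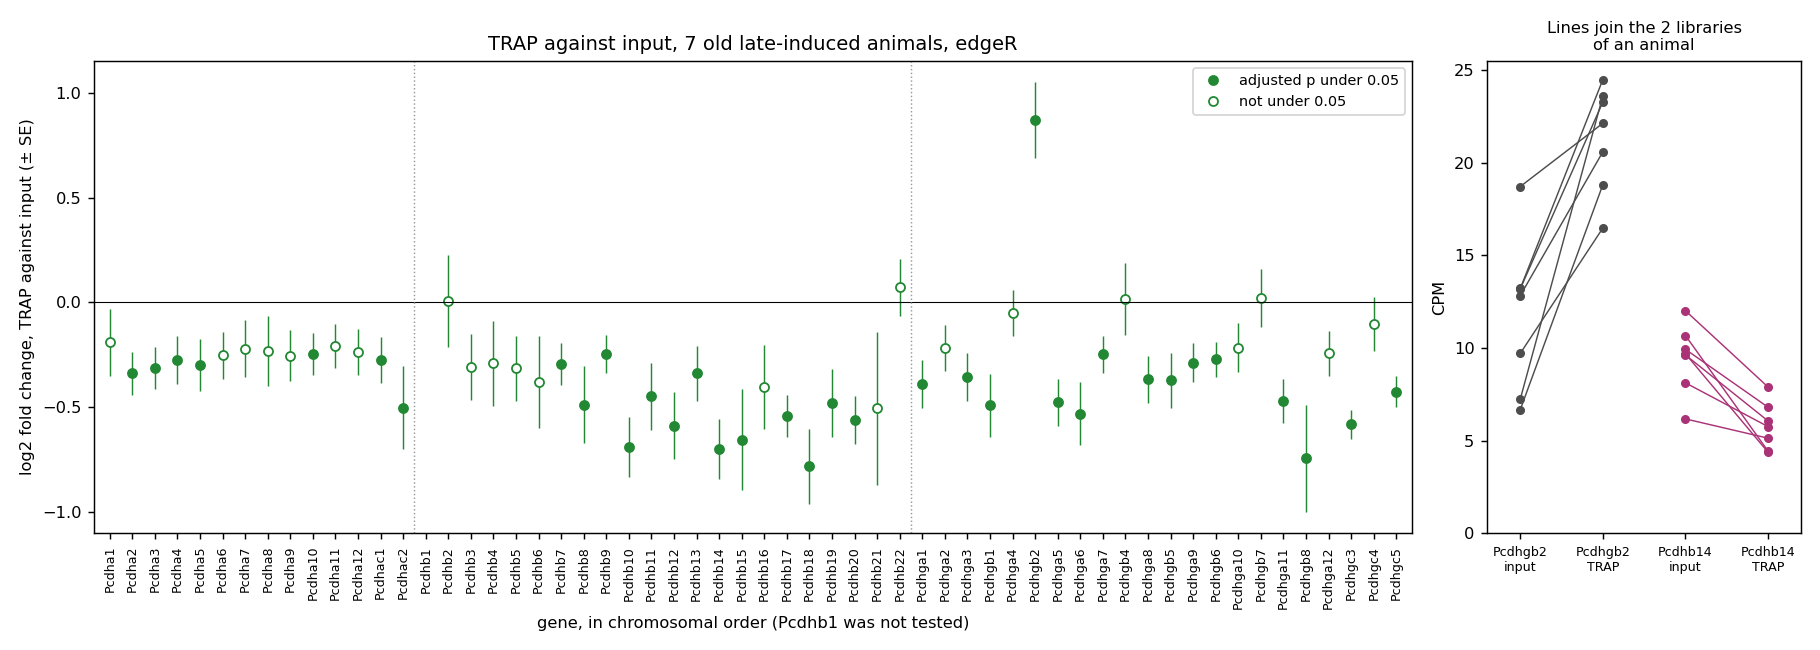
Left, log2 fold change (± SE) of each tested member in TRAP against input of the 7 old late-induced animals, from edgeR, with filled points at an adjusted p under 0.05. Right, CPM of Pcdhgb2 and Pcdhb14 with lines joining the 2 libraries of an animal: Pcdhgb2 is higher in TRAP and Pcdhb14 lower in 7 of 7 animals.

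Of the C-type genes, 4 of 5 were called lower in TRAP, where 28.8% of all genes were. Pcdhgc3 was 94.2 to 134 CPM in TRAP (median 110) and 149 to 177 CPM in input (median 166), with no overlap. It fell by 0.58 ± 0.07 on the log2 scale (edgeR adjusted p = 1.85e-06), and the ratio was lower in 7 of 7 animals, from -0.75 to -0.37. Pcdhgc5 was 99.8 to 142 CPM against 155 to 191 CPM, also without overlap, and fell by 0.43 ± 0.08 (adjusted p = 0.000127).

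Pcdhac1 fell by 0.28 ± 0.11 and Pcdhac2 by 0.50 ± 0.20, both with an edgeR adjusted p of 0.0372. The Pcdhac1 call ended when any of 5 of the 7 animals was left out (adjusted p up to 0.11). It also ended among females alone, at a log2 fold change of -0.33, and with no filter, at -0.25. The Pcdhac2 value was -0.31 without the animal whose input read 71.0 CPM. Leaving out 1 of 4 other animals ended the Pcdhac2 call, with adjusted p values of up to 0.0744. Pcdhgc4 stood at -0.10 ± 0.13, with 13.4 to 22.1 CPM in TRAP against 15.6 to 24.0 CPM, and was not called. Pcdhgc3 and Pcdhgc5 together held 38.1% to 42.2% of gamma RNA in TRAP and 43.4% to 46.3% in the paired inputs, which did not overlap.

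Of the 5 largest falls, 4 were in the beta cluster and 1 was the gamma B gene Pcdhgb8. Pcdhb18 read 1.35 to 3.71 CPM in TRAP (median 3.04) and 3.73 to 6.30 CPM in input (median 4.63), without overlap, and fell by 0.78 ± 0.18 (edgeR adjusted p = 0.00137). Pcdhb14 fell by 0.70 ± 0.14 (adjusted p = 0.000493), Pcdhb10 by 0.69 ± 0.14 (adjusted p = 0.000554) and Pcdhb15 by 0.65 ± 0.24 (adjusted p = 0.0287), and Pcdhb10 and Pcdhb14 were lower in 7 of 7 animals. The Pcdhb15 call ended when any of 4 animals was left out (adjusted p up to 0.0678). From Pcdhb10 to Pcdhb21, a range chosen after the values were seen, 10 of 12 genes were called lower, where 28.8% of all genes were. From Pcdhb2 to Pcdhb9, 3 of 8 were, namely Pcdhb7, Pcdhb8 and Pcdhb9, although 7 of these 8 values lay below 0. The median log2 fold changes were -0.55 and -0.30. With the animal as a block the counts of lower calls were 11 of 12 and 5 of 8, beside 4680 of all 14596 genes. The difference between the stretches was not tested.

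Of the genes that rose most with age, Pcdhb3 was 6.91 to 11.6 CPM in TRAP and 8.13 to 16.0 CPM in the paired inputs, a log2 fold change of -0.31 ± 0.16 that was called with the animal as a block (edgeR adjusted p = 0.0346) and not without it (0.104). Pcdhb9 was 14.4 to 21.4 CPM against 19.3 to 24.0 CPM and fell by 0.25 ± 0.09 (adjusted p = 0.0284), a call lost when any of 4 animals was left out (adjusted p up to 0.116). Genes Pcdhb2 to Pcdhb9, the stretch chosen after the values were seen, held 47.03% ± 2.55 of the beta total in TRAP and 43.2% ± 1.36 in the paired inputs (SD, n = 7). Members without overlap were Pcdhb18, Pcdhb20, Pcdhgc3 and Pcdhgc5, all lower in TRAP, where 10.5% of all genes were lower without overlap.

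Pcdhgb2, a gamma B gene, was the member that rose. It read 20.6, 18.8, 23.6, 22.1, 23.3, 24.5 and 16.5 CPM in the TRAP libraries of animals 1 to 7 and 12.8, 6.68, 7.24, 18.7, 13.2, 13.2 and 9.71 CPM in their inputs. The TRAP value was higher in 7 of 7 animals, by 0.24 to 1.69 on the log2 scale, although 1 input overlapped the TRAP range. The log2 fold change was 0.87 ± 0.18 (edgeR adjusted p = 0.000547), or 1.83-fold. It was called under every alternative scaling, filter, tool and left-out animal that was run, between 0.72 under upper quartile scaling and 1.01.

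Other gamma rows were mostly lower. Pcdhgb8 fell by 0.74 ± 0.25 (edgeR adjusted p = 0.0191), a call lost without either of 2 animals, from a low level of 1.73 to 4.37 CPM in TRAP against 3.23 to 7.81 CPM. Pcdhga6 fell by 0.53 ± 0.15 and Pcdhgb1 by 0.49 ± 0.15. Pcdhga11 fell by 0.47 ± 0.10, from 29.5 to 53.4 CPM in input to 30.8 to 39.6 CPM in TRAP. Pcdhgb4 and Pcdhgb7 were at 0.02 ± 0.17 and 0.02 ± 0.14, and neither was called.

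Beside these values in TRAP, 5 of 10 neuronal markers fell (median log2 fold change -0.18), as did 7 of 8 astrocyte (-0.46), 6 of 6 oligodendrocyte (-1.30) and 6 of 6 oligodendrocyte precursor markers (-1.31). All 3 blood markers (-2.30), 4 of 5 choroid plexus markers (-1.96) and 2 of 3 tested mural markers (-0.52) fell too. Microglial markers rose by a median of 4.29 and all 5 endothelial markers rose (1.28). The members' median of -0.31 lay between the neuronal and the astrocyte medians, but single members ran from -0.78 to 0.87. How much of the protocadherin RNA in TRAP came from marked cells was not tested.

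The non-clustered protocadherins, adhesion proteins of the same family that are encoded elsewhere, gave 11 tested genes. In TRAP, where 28.8% of all genes fell, 7 of them did, among them Pcdh11x (-0.65 ± 0.15), Pcdh9 (-0.47 ± 0.08) and Pcdh10 (-0.43 ± 0.07), and Pcdh1 rose (0.32 ± 0.09). With age none rose, and 1 and 4 of the 11 fell, where 12.6% and 17.5% of all genes did. Pcdh8 fell by 0.15 ± 0.04 in early-induced animals, and Pcdh1 (-0.44 ± 0.13), Pcdh20 (-0.37 ± 0.09), Pcdh17 (-0.22 ± 0.05) and Pcdh8 (-0.17 ± 0.05) fell in late-induced animals.

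Regulators of protocadherin promoter choice were read from a list of 21 names, of which 19 were tested. With age 1 rose and 7 fell in each comparison, beside 25.6% and 34.5% of all genes called. The riser was Rad21, a cohesin subunit (0.10 ± 0.03 and 0.13 ± 0.04). Dnmt3a, a DNA methyltransferase, fell by 0.28 ± 0.06 and 0.37 ± 0.07 on the log2 scale. Setdb1, which writes repressive histone methylation and acts on the protocadherin locus, fell by 0.26 ± 0.05 and 0.30 ± 0.06. Smchd1, a silencing protein that restrains these clusters, fell by 0.24 ± 0.06 and 0.21 ± 0.06, and the cohesin loader Nipbl by 0.25 ± 0.06 and 0.30 ± 0.08.

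Ctcf itself was called in neither age comparison. In TRAP, where 30.4% of all genes rose, 17 of the 19 regulators did, Dnmt3b most (1.32 ± 0.23), then Zfp143 (0.63 ± 0.10), Smc1a (0.61 ± 0.05) and Rest (0.53 ± 0.16), while Ctcf rose by 0.17 ± 0.04 and Pds5b fell by 0.33 ± 0.05.

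Partners and effectors of the proteins formed a list of 24 genes, all tested. In early-induced animals 3 rose and 3 fell, where 25.6% of all genes were called, and in late-induced animals 2 rose and 8 fell, where 34.5% were. Rhoa and Rac1, small GTPases of the actin skeleton, rose in both (Rhoa 0.15 ± 0.04 and 0.26 ± 0.04). Prkca, a protein kinase C, fell by 0.17 ± 0.05 and 0.30 ± 0.06, and Fyn, a kinase that alpha protocadherins were found to bind, by 0.10 ± 0.03 and 0.12 ± 0.03. Nckap1, a subunit of the actin-regulating WAVE complex, fell by 0.27 ± 0.06 in late-induced animals.

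In TRAP 10 partners rose and 8 fell, where 59.2% of all genes were called. Cyfip1, another WAVE subunit, rose by 1.46 ± 0.10, Marcks, a protein kinase C substrate of the cell cortex, by 1.43 ± 0.09, and Adam10, the protease that sheds protocadherin outer domains, by 0.89 ± 0.07. Nlgn1 and Nlgn2, synaptic adhesion proteins, fell by 0.51 ± 0.06 and 0.36 ± 0.06. Between the 2 old induction groups Marcks alone was called, higher in late-induced inputs by 0.26 ± 0.05 (edgeR adjusted p = 0.0257).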

How the data were processed

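Inputs and TRAP pulldowns of mouse hippocampus were sequenced as polyA RNA. The authors deposited estimated counts per gene and library, marked raw per the file headers. The submitters' processing notes name mm10 and DESeq2, and the aligner and counting tool are not given in the sources used here. Groups, sex and animal numbers came from the labels, so that libraries of a group are separate animals. In the contrasts of inputs, p-values measure the spread between animals. The main fit of TRAP against input had no animal term, so it treated the TRAP and input libraries of an animal as independent. The members and lists were chosen with earlier results of these data known.

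After rounding to whole numbers, all genes were tested with edgeR 4.0.16 in R 4.3.3 (TMM, glmQLFit and glmQLFTest, after filterByExpr at a minimum of 10 counts), with Benjamini-Hochberg adjustment and a threshold of 0.05. TRAP against input was fitted on 14 libraries with sex, and the age, induction and sex contrasts on 29 inputs with group and sex. SE was derived from the F statistic. The test was also run on simulated counts drawn without an animal effect, so that run cannot show how it handles paired libraries. Named genes were the C-type genes, the 5 largest called changes per contrast and direction with an average log2 CPM over 0, and up to 5 called genes per list and direction. Others, such as Pcdhb7, Pcdhb17, Pcdhb20, Pcdhga6 in TRAP and Ctcf, were chosen after their values were seen. CPM used unrounded counts. Exon lengths are of GENCODE M21 protein-coding transcripts, which matched 56 members and ran past the deposited ends of several beta rows. Cluster totals got no test.

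TRAP and input libraries of an animal share its number. Their deviations from the group means, taken over genes, had correlations of 0.308 to 0.470 within the 7 pairs and a median of -0.085 between animals. Centring on the group means itself pulls the values between animals below 0, so that median is no separate evidence of pairing. Alternatives were other scalings (RLE, upper quartile, library size alone), no filter, DESeq2 1.42.0, limma voom 3.58.1, females only, other covariates and groups, the animal as a block and each library or animal left out. Leaving out 3 inputs with high Pcdhac2 was added after the data were seen.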

Additional observations from a re-analysis of the deposited data

Results flagged for a closer look

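A library standing far from the rest of its group was found in 11 of 135 group and gene values checked, where chance gives about 1 in 20, or 6.75. The check covered the young inputs, the old late-induced inputs and TRAP, and not the 12 old early-induced inputs. In old late-induced input 7, Pcdhac2 read 71.0 CPM with the next library at 34.1 CPM, and Pcdhac1 read 7.42 CPM with the next at 9.64 CPM. Input 4 of that group had 14.9 CPM of Pcdhga1, above 12.1 CPM. In young inputs, Pcdhac2 was low in library 5 (31.4 CPM, next 37.4 CPM) and Pcdhga3 in library 6 (22.3 CPM, next 29.2 CPM). Values were high for Pcdhgb8 in young library 6 (6.41 CPM, next 4.36 CPM), Pcdhb2 in library 9 (4.15 CPM, next 2.58 CPM) and Pcdhb5 in library 7 (8.90 CPM, next 7.32 CPM). The alpha total was also high in young library 9 (198 CPM, next 181 CPM). In TRAP, Pcdhb6 was high in library 6 (3.65 CPM, next 2.52 CPM) and Pcdhga11 in library 4 (39.6 CPM, next 33.7 CPM).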

How the results depend on the processing

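Member calls under other scalings, filters and tools stayed within 1.5 times of the main counts, at 27 to 47 in TRAP, 17 in old early-induced and 13 to 14 in old late-induced against young animals. In TRAP the 27 of 58 with no filter went with 8594 of 19593 genes called. The 47 of 57 under upper quartile scaling went with 9652 of 14596 genes. With females only, 10 of 57 members were called in early-induced animals and 0 of them lower, beside 1198 of all 14862 genes called. Lower calls there numbered 1 with group alone in the fit, and 1 to 2 when a library was left out. In late-induced animals lower calls ranged from 0 to 1 when a library was left out (1 without old late-induced input 1, young input 8 or young input 10) and numbered 1 (Pcdhac2) without the 3 inputs with high Pcdhac2. The animal as a block added 6 calls in TRAP, for 41, and changed no other call.

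Signs turned for genes near 0. Pcdhac2 in early-induced animals was -0.026 in limma voom, -0.24 without the 3 inputs and between -0.13 and 0.093 when a library was left out. Among females, Pcdhgc5 was 0.024 in early-induced and Pcdhac2 0.10 and Pcdhgc4 0.059 in late-induced animals. Taken as the median over rows, the beta log2 difference was 0.17 and 0.14, and that of gamma in TRAP was -0.11. The summed gamma difference in TRAP was -0.46 when scaled by library size alone. The cause was not tested. Depth limits the lowest rows: Pcdhb1, Pcdhb15 and Pcdhb21 each had under 10 counts in at least 1 library. Pcdha8 also had under 10 counts, at 0.402 CPM in old early-induced input 6, 1 of the 3 inputs with high Pcdhac2.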
